A study of Mus musculus with 2 samples.

Results

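Arterial endothelial cells of mouse long-bone marrow were selected by their transcripts from single-cell RNA counts of an adult and an old library. A cell was kept when at least 500 genes were detected and at most 10% of its UMIs, the molecule tags that count RNA, were mitochondrial. It was called endothelial when the 6 endothelial genes Cdh5, Kdr, Egfl7, Tek, Cldn5 and Tie1 together had at least 5 UMIs. It was called arterial when, in addition, the 5 arterial genes Sox17, Sema3g, Gja4, Gja5 and Bmx together had at least 2 UMIs and the sinusoidal gene Stab2 had 0. This gave 564 arterial cells of 41378 kept cells and 47933 barcodes in all. The adult library held 334 of them and the old library held 230.

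Arterial endothelial cells line the vessels that carry blood into the marrow, where arterioles branch into wide, leaky sinusoids that drain it. Their identity is set by VEGF and Notch signalling and by SoxF transcription factors, and is maintained under high blood flow, which induces Klf2 and Klf4. In marrow they form a niche with perivascular mesenchymal cells and supply Notch ligands, Cxcl12 and Kitl (stem cell factor) to blood stem cells.

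The marrow came from long bones of wild-type C57BL6J mice, was flushed and digested with enzymes, and was depleted of blood-forming cells on a magnetic separator. Live cells, gated by scatter and DAPI, were sorted and carried through a 10x 3' kit. The labels give age only as the words adult and old, with 1 library for each. The sources used here give neither the number of mice nor their sex, ages in months or pooling. With 1 library per age no test between ages is possible, and all intervals below are 95% intervals that cover counting error only. The barcodes of 152 cells occurred in both libraries. No barcode was arterial in both, and 2 barcodes of arterial cells of each library occurred in the other. Arterial cells had a median of 5615.5 UMIs (range 905 to 47747) in the adult library and 4748 (range 1121 to 105560) in the old library, and summed to 2550295 and 1694344 UMIs. RNA that is free in the droplets gives UMIs in cells that do not express a gene. It was read from 3 kinds of cell with fewer than 5 endothelial UMIs, namely CAR-type cells (Cxcl12-abundant reticular mesenchymal cells), megakaryocyte-type cells and erythroid-type cells. Where the lowest of their 3 means per cell came to over 30% of the mean in the higher of the groups compared, a gene is called open to free RNA.

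The cells that the endothelial gate left beside the arterial ones differed between the libraries. In the adult library 1364 endothelial cells remained, and 3.01% of them had fewer than 3 of the 6 endothelial genes. In the old library 432 remained, and 72.2% of them had fewer than 3 of the 6. Most of these old barcodes, 284 of the 432, had Egfl7 as their only endothelial gene. The 312 old barcodes with fewer than 3 of the genes had a median of 70632 UMIs, with means per cell of 33.6 UMIs of Mki67, a proliferation gene, and 12.2 UMIs of Klf1, an erythroid regulator. Of the arterial cells, 98.2% of the adult and 97.8% of the old ones had at least 3 of the 6 genes, and the 6 adult and 5 old ones with fewer stayed in the arterial sums. In old arterial cells Klf1 was at 24.2 CPM, with UMIs in 3.04% of them, and Mki67 at 64.3 CPM, against 2.16 and 16.2 CPM in old remaining cells with at least 3 of the genes. Gene values below set arterial cells against the remaining endothelial cells with at least 3 of the 6 genes, a condition added after the data were seen. There were 1323 such cells in the adult library and 120 in the old one.

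**Figure D1:**
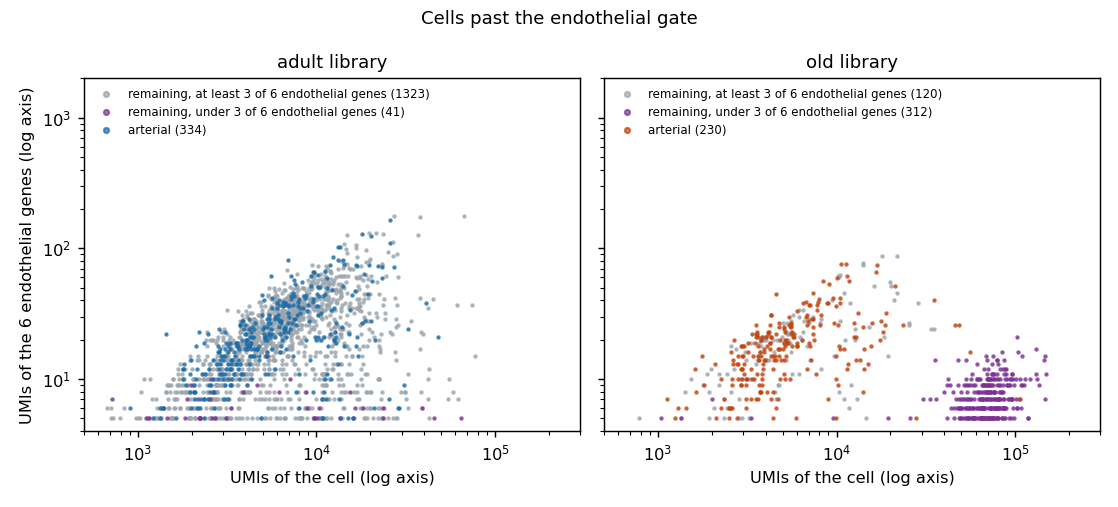
Total UMIs per cell (x axis, log scale) against the UMI sum of the 6 endothelial genes (y axis, log scale) for endothelial cells of the adult and the old library, 1 point per cell. Old remaining cells with fewer than 3 of the 6 genes had a median of 70632 UMIs, while old arterial cells had a median of 4748.

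Arterial cells were 334 of 1698 adult endothelial cells, 19.7% (exact binomial interval 17.8 to 21.6). They were 230 of 662 old endothelial cells, 34.7% (31.1 to 38.5), a ratio of old over adult of 1.77 (1.49 to 2.10). Among endothelial cells with at least 3 of the 6 genes the shares were 19.9% (18.0 to 21.9) and 65.2% (59.9 to 70.2). Of all kept cells arterial cells were 1.49% (1.34 to 1.66) in the adult and 1.21% (1.06 to 1.38) in the old library, a ratio of 0.813 (0.684 to 0.965). The share of arterial cells among endothelial cells was thus higher in the old library while their share of all cells was not. The other endothelial cells were fewer in the old library, where Stab2-positive cells with at least 3 of the 6 genes were 67, or 0.353% of kept cells, against 918, or 4.10%, in the adult library. The enrichment, the sort and the recovery of each cell type from the marrow can all set such shares, and their part was not tested.

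The 5 genes of the rule describe how the cells were chosen and are given without a test. Sox17, a SoxF transcription factor of arterial fate, was found in 72.5% of adult arterial cells and 79.6% of old ones. After each cell was thinned to 2000 UMIs, which kept 318 adult and 222 old arterial cells, the Sox17 shares were 44.7% and 55.0%. Sema3g, a secreted semaphorin, was found in 74.9% and 90.0%, and Gja4, a connexin of endothelial gap junctions, in 63.8% and 76.5%. Gja5, an arterial connexin, and Bmx, a non-receptor tyrosine kinase of arterial endothelium, were found in fewer cells. Gja5 was found in 21.3% of arterial cells in both libraries, and Bmx in 21.6% of adult and 27.0% of old cells. Only 17 cells in each library had all 5 genes, and 60 adult and 14 old cells qualified on a single gene. The median sum of the 5 genes was 5 UMIs (range 2 to 37) in adult and 8 UMIs (range 2 to 48) in old arterial cells. Cells just inside the threshold, with a sum of 2, were 82 of the 334 adult cells and 17 of the 230 old cells. Just outside it, with a sum of 1 and no Stab2, lay 122 adult and 25 old cells with at least 3 of the 6 endothelial genes. A further 123 adult and 19 old endothelial cells passed the arterial threshold but held Stab2 UMIs and were not members.

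In CPM, the UMIs of a gene scaled to a common total for each cell group, Sox17 was at 269 in adult and 365 in old arterial cells, Sema3g at 260 and 505, and Gja4 at 293 and 323. Gja5 was at 53.3 and 64.3 CPM, and Bmx at 52.2 and 63.7 CPM. Sema3g had the largest difference between the libraries among the 5, with a log2 ratio of old over adult of 0.96, while the other 4 had log2 ratios from 0.14 to 0.44. Sema3g was also higher in old than in adult remaining endothelial cells, at 84.3 against 21.0 CPM, and was found in 35.0% and 10.8% of them. The RefSeq promoter table (GRCm38.p6) held 4 of these 5 genes, and 2 of the 4 had the SOX core ACAAAG, on either strand, in the 250 bases before the start site. The letters occur in 16.5% of all 32851 promoters of that length in the table. Both promoters are shown because they belong to members of the rule that are read beside Sox17, with the SOX core in capitals. The first lies at chr3:97032152-97032401 on the plus strand and the second at chrX:164258194-164258443 on the minus strand.
Gja5: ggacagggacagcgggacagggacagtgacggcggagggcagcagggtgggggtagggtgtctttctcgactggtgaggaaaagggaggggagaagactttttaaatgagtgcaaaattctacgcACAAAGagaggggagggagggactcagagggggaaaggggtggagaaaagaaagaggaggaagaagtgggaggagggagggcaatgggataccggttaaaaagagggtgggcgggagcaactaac
Bmx: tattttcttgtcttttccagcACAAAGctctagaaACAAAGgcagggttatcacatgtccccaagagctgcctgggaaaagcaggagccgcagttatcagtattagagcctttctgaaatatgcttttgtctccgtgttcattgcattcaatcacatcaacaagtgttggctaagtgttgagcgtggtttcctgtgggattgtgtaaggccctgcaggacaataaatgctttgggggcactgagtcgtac
The core stood 125 bases before the Gja5 start site, and 229 and 215 bases before that of Bmx. The promoters of Gja4 and Sema3g held no such letters in this window.

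Within the endothelium, some arterial genes that the rule did not use were higher at higher sums of the 5 rule genes. Mecom, a zinc finger transcription factor, was at 94.5 CPM in adult Stab2-negative cells just outside the threshold (sum 1) and at 185 CPM just inside it (sum 2). Mecom was at 398 CPM at sums of 3 to 4, at 762 CPM at 5 to 9 and at 861 CPM at 10 or more. Old Mecom went from 497 CPM at a sum of 1 to 648 CPM at 2, a step of only 15 cells, and 1576 CPM at 10 or more. Stmn2, a tubulin-binding protein known mostly from neurons, had 1 UMI, or 0.945 CPM, at a sum of 1, and was at 25.7 CPM at 2 and at 223 CPM at 10 or more in adult cells. In old cells Stmn2 was at 64.9, 135 and 351 CPM at these sums. Jag2, a Notch ligand, was at 34.0, 41.8 and 162 CPM in adult and 57.7, 135 and 279 CPM in old cells at the same sums. Other arterial genes showed no rise at some steps, but on few UMIs and with overlapping intervals. Adult Hey1 was at 13.2, 10.4 and 9.65 CPM at sums of 0, 1 and 2, from 24, 11 and 6 UMIs. Old Hey1 was at 40.5 CPM at 2 and 11.5 CPM at 3 to 4, from 3 UMIs each. Adult Dll4 was at 86.0 CPM (69.2 to 106) at 1 and 75.6 CPM (55.6 to 101) at 2. Adult Jag1 was at 46.7 CPM (31.3 to 67.0) at 2 and 27.6 CPM (15.1 to 46.3) at 3 to 4. Counting error alone can thus give these steps. The scavenger receptor Stab1, of sinusoids, ran the other way, from 159 and 183 CPM at sums of 1 and 2 to 57.5 CPM at 10 or more in adult cells. Gkn3, a marker of arteries in other organs, was at 58.9 CPM at 10 or more in adult and at 14.9 CPM in old arterial cells. Cells with a sum of 2 thus lay between the cells outside the gate and those with a high sum for Mecom in both libraries. The points share cells, library and depth with the rule, so the grading is a description.

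**Figure D2:**
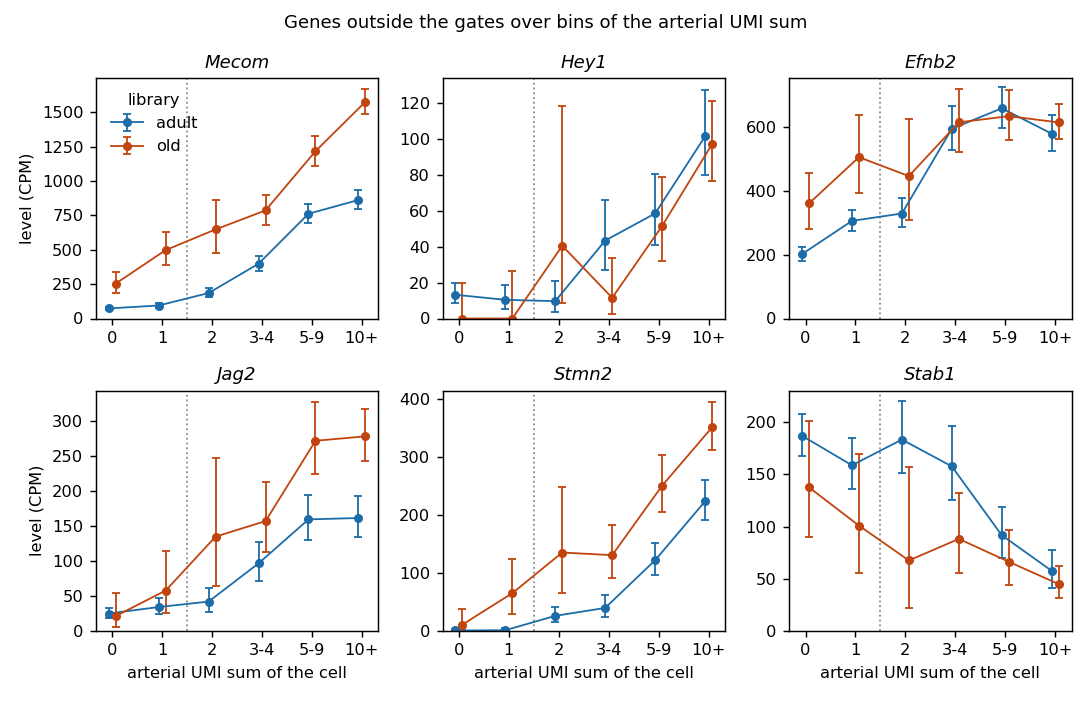
Level in CPM (y axis) of Mecom, Hey1, Efnb2, Jag2, Stmn2 and Stab1 in Stab2-negative endothelial cells with at least 3 of the 6 endothelial genes, by the UMI sum of the 5 arterial rule genes (x axis), for the adult (blue) and the old (orange-red) library, with 95% Poisson bars for counting error. The dotted line is the threshold of the rule. Adult Mecom was at 185 CPM in cells with a sum of 2 and at 861 CPM in cells with a sum of 10 or more.

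The label arterial held on markers outside the rule. Mecom was at 565 CPM in adult arterial cells against 64.6 CPM in the remaining endothelial cells, a log2 ratio of 3.13 (3.00 to 3.26), and at 1193 against 379 CPM in the old library, a log2 ratio of 1.65 (1.49 to 1.82). Mecom UMIs were found in 68.6% of adult arterial cells and 89.6% of old ones, against 2.79% and 1.89% of CAR-type cells. After thinning the arterial shares were 48.8% and 77.2%. Hey1, a transcription factor downstream of Notch, was at 55.3 against 9.38 CPM in the adult library (log2 ratio 2.56) and at 62.6 against 1.08 CPM in the old library (log2 ratio 5.85, interval 3.35 to 11.17). Hey1 was thin in both libraries, found in 25.1% and 30.9% of arterial cells, and in 10.7% and 4.44% of CAR-type cells. Both genes were higher in arterial than in remaining cells in each library.

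Of the 35 arterial markers outside the rule, 28 passed the minimum of 50 CPM and 50 UMIs in the higher group in the adult library. Of these, 21 were at least 2-fold higher in arterial cells and 0 were 2-fold lower, with a median log2 ratio of 1.52. Over all 4545 genes past the minimum 3.56% were 2-fold higher, 3.32% were 2-fold lower, and the median log2 ratio was 0.02. In the old library 29 markers passed, 19 were 2-fold higher and 0 lower, with a median of 1.29, against 6.06% higher, 4.71% lower and a median of 0.03 over all 4605 genes. Against all remaining cells of the rule, 164 of 4553 genes were 2-fold higher (3.6%) and 147 lower (3.23%) in adult arterial cells. In the old library, where most remaining barcodes by the rule were the deep ones described above, 1846 of 5387 were higher (34.3%) and 1490 lower (27.7%). The rule was applied to these same cells, so the counts describe the selection and test nothing. The highest of the 20 ratios that named genes in the adult library was that of Stmn2, at 109 against 2.72 CPM in adult (5.32, interval 4.78 to 5.91) and 256 against 18.4 CPM in old cells (3.80, 3.10 to 4.59). Nebl, an actin-binding nebulin relative, followed with 283 against 22.3 CPM in adult (log2 3.67) and 889 against 71.3 CPM in old cells (log2 3.64). Lrrc3b, a leucine-rich repeat membrane protein, was at 133 against 13.9 CPM (log2 3.26) and 295 against 71.3 CPM (log2 2.05).

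**Figure D3:**
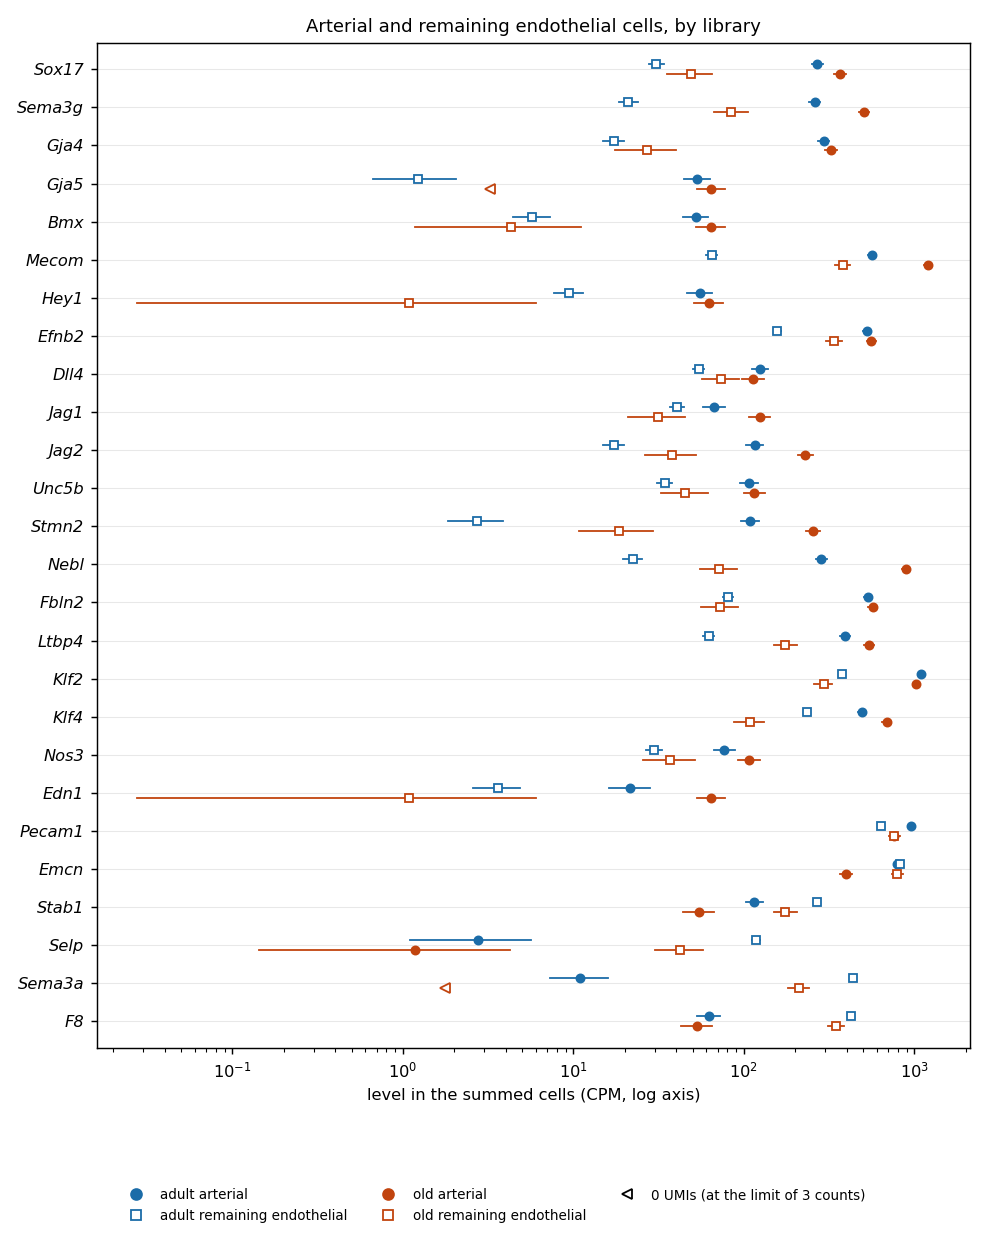
Level in CPM (x axis, log scale) of 26 genes in arterial cells (filled circles) and remaining endothelial cells with at least 3 of the 6 endothelial genes (open squares) of the adult (blue) and the old (orange-red) library, with 95% Poisson bars for counting error. A left-pointing triangle marks 0 UMIs, drawn at the limit of 3 counts. Mecom was at 565 against 64.6 CPM in the adult library and Selp, on the venous side, at 2.74 against 118 CPM.

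The remaining endothelial cells without Stab2 UMIs, 405 adult and 53 old cells with at least 3 of the 6 genes, share the lack of Stab2 UMIs with the arterial ones. Adult arterial cells had log2 ratios against them of 2.80 for Mecom, 3.20 for Nebl, 2.11 for Ltbp4 and 1.14 for Efnb2. Old arterial cells had log2 ratios of 1.74, 2.94, 1.28 and 0.41 for these genes. In this comparison 2.48% of 4478 genes were 2-fold higher in adult arterial cells and 1.12% lower. For old arterial cells 12.2% of 3500 genes were higher and 1.74% lower, and the median log2 ratio over these genes was 0.35. The old remaining cells without Stab2 UMIs held 327752 UMIs in all, against 1694344 in old arterial cells. A gene higher in these remaining cells thus needed a higher CPM to reach the minimum of UMIs than a gene higher in arterial cells. The part of this in the median and the shares was not tested, so the median is not read as a shift of the ratios.

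Several Notch genes were higher in arterial cells, by differing amounts. In Notch signalling a ligand on one cell leads to cleavage of the receptor on its neighbour, and the freed part of the receptor turns on Hes and Hey genes. Of 14 Notch pathway genes past the minimum in the adult library, 5 were 2-fold higher in arterial cells and 0 lower, with a median log2 ratio of 0.73. These were Notch4, Dll4, Jag2, Hey1 and Sox17, the last of which is a rule gene. In the old library 4 of 13 were 2-fold higher, namely Jag1, Jag2, Hey1 and Sox17, and 1 was lower, with a median of 0.36. The shares over all genes were 3.56% higher and 3.32% lower in the adult library, and 6.06% and 4.71% in the old one. Among ligands, Jag2 was at 116 against 17.3 CPM in adult (log2 2.75) and 229 against 37.8 CPM in old cells (log2 2.60). Dll4, the main arterial Delta ligand, was at 125 against 54.2 CPM (log2 1.20) and 113 against 73.5 CPM (log2 0.62). Jag1 was at 67.1 against 40.6 CPM in adult (log2 0.72) and 124 against 31.3 CPM in old cells (log2 1.98). Jag2 was thus several-fold higher in arterial cells of both libraries, Dll4 was past 2-fold only in the adult library and Jag1 only in the old library, a difference between libraries that was not tested. Jag1 UMIs were found in 31.4% of adult arterial cells, 29.7% of adult CAR-type cells and 12.2% of adult megakaryocyte-type cells. Of the receptors, Notch1 had log2 ratios of 0.73 and 0.48 and Notch4 of 1.19 and 0.32 in the adult and the old library.

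Efnb2, Unc5b, Epha4 and Vegfc were also higher in arterial cells. Efnb2, the ephrin ligand that marks arteries against veins, was at 529 against 157 CPM in adult (log2 1.75) and 558 against 338 CPM in old cells (log2 0.72). Unc5b, a netrin receptor, was at 107 against 34.4 CPM (log2 1.64) and 115 against 45.4 CPM (log2 1.34), and the ephrin receptor Epha4 had log2 ratios of 2.05 and 1.55. Vegfc, a ligand of the VEGF receptor Flt4, was at 418 against 193 CPM in adult (log2 1.11) and 610 against 305 CPM in old cells (log2 1.0). Adult Vegfc is open to free RNA, since the lowest mean of the comparison cells came to 36.0% of the arterial mean, and to 27.8% in the old library. For Efnb2 the arterial levels of the libraries were close, and the remaining cells of the old library were higher than those of the adult library. Of the 24 members of the VEGF, angiopoietin and ephrin list past the minimum, 7 were 2-fold higher in arterial cells and 1 lower in the adult library (median 0.27), and 5 higher and 4 lower in the old library (median 0.01). Beside this, 3.56% of all genes were higher and 3.32% lower in the adult library, and 6.06% and 4.71% in the old one.

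Klf2, Klf4 and Nos3, which respond to flow or set vascular tone, were higher in arterial cells of both libraries. Klf2, a flow-induced transcription factor, was at 1086 against 376 CPM in adult (log2 1.53) and 1027 against 293 CPM in old cells (log2 1.81). Klf4, its relative, was at 494 against 233 CPM (log2 1.08) and 688 against 108 CPM (log2 2.67). Nos3, the endothelial nitric oxide synthase, was at 76.9 against 29.5 CPM (log2 1.38) and 107 against 36.8 CPM (log2 1.54). Edn1, which encodes the vasoconstrictor endothelin, was low in adult arterial cells, at 21.6 against 3.59 CPM, and at 64.3 against 1.08 CPM in old cells. Cav1, the coat protein of caveolae, was at 416 against 111 CPM (log2 1.91) and 392 against 254 CPM (log2 0.63). Of 15 shear stress and vasoactive genes past the minimum in the adult library 4 were 2-fold higher and 2 lower, and of 12 in the old library 4 were higher and 1 lower, with medians of 0.47 and 0.51. All genes together had 3.56% higher and 3.32% lower in the adult library, and 6.06% and 4.71% in the old one. Klf2 and Klf4 were also the 2 of 23 genes of the immediate early list that were 2-fold higher in adult arterial cells, with 0 lower and a median of 0.34.

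Fbln2, Ltbp4, Eln and Lama3, genes of elastic fibres and laminins, were higher in arterial cells. Fbln2, an extracellular fibulin, was at 535 against 80.5 CPM in adult (log2 2.73) and 568 against 72.4 CPM in old cells (log2 2.97). Ltbp4, which binds latent TGF-beta and helps elastic fibres to form, was at 391 against 62.0 CPM (log2 2.66) and 541 against 175 CPM (log2 1.63). Eln, the gene of elastin itself, was at 92.1 against 29.5 CPM (log2 1.64) and 143 against 46.5 CPM (log2 1.63), and the laminin chain gene Lama3 had log2 ratios of 2.09 and 1.31. This held in both libraries for all 4 genes. Of the basement membrane and elastic fibre list 9 of 28 genes were 2-fold higher in arterial cells and 0 lower in the adult library (median 0.55). In the old library 8 of 29 were higher and 4 lower (median -0.25), and the 4 lower ones were Col15a1, Lamb1, Sparcl1 and Vwa1. The shares over all genes were 3.56% higher and 3.32% lower in the adult library, and 6.06% and 4.71% in the old one. Tgfb2, a TGF-beta ligand, was at 87.0 against 19.3 CPM in adult and 248 against 51.9 CPM in old cells, log2 ratios of 2.17 and 2.26.

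Most sinusoidal genes and fewer of the venous genes were lower in arterial cells. Of the sinusoidal list 10 of 14 genes were 2-fold lower and 0 higher in the adult library (median -1.67), and 10 of 15 in the old library (median -1.58). Stab2 is among the 10 lower sinusoidal genes in both libraries and was set to 0 by the rule. Selp, the P-selectin gene that captures leukocytes in venules, was at 2.74 against 118 CPM in adult (log2 -5.43) and 1.18 against 42.2 CPM in old cells (log2 -5.16). Sema3a, a repulsive semaphorin, was at 11 against 436 CPM in adult arterial and remaining cells, and had 0 UMIs in old arterial cells against 210 CPM in old remaining cells. Mrc1, the mannose receptor, had log2 ratios of -3.49 and -3.70, and F8, the coagulation factor VIII gene, of -2.78 and -2.71. Stab1, which the rule did not use, was at 115 against 268 CPM (log2 -1.22) and 54.3 against 175 CPM (log2 -1.69). Nr2f2, the venous fate regulator, was at 52.9 against 170 CPM (log2 -1.68) and 38.4 against 136 CPM (log2 -1.83). Of the venous list 4 of 9 genes were 2-fold lower in the adult library (median -0.88) and 2 of 6 in the old library (median -0.28), with 0 higher in both. Beside the sinusoidal and venous lists, 3.56% of all genes were higher and 3.32% lower in the adult library, and 6.06% and 4.71% in the old one. Vwf, a general marker of large vessels, was low in arterial cells, at 12.5 CPM in adult cells and at 17.1 CPM in old cells, and did not pass the minimum.

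Of 11 capillary genes in the adult library 0 were 2-fold apart in either direction between arterial and remaining cells (median 0.29). Some differed among adult Stab2-negative cells with at least 3 of the 6 endothelial genes. Cd36 was at 85.0 CPM at a rule gene sum of 1 and 238 CPM at 2, and Fabp4 at 1088 and 1556 CPM. Rgcc, at 371 and 396 CPM, and Gpihbp1, at 454 and 443 CPM, differed less. Among old cells 1 of 11 was 2-fold higher in arterial cells and 1, Aqp1, was lower (median -0.23). Of the pan-endothelial genes 1 of 16, Cd34, was 2-fold higher in adult arterial cells (median 0.33) and 0 of 16 were in old ones (median -0.10). Beside both lists, 3.56% of all genes were higher and 3.32% lower in the adult library, and 6.06% and 4.71% in the old one. Emcn, the sialomucin endomucin that is high in sinusoids and low in arteries, was at 794 against 828 CPM in the adult library (log2 -0.06) and at 397 against 793 CPM in the old library (log2 -1.0). Adult arterial cells by this rule were therefore not low in Emcn, while old ones were. In adult cells Emcn was at 912 CPM at a rule gene sum of 2 and at 633 CPM at 10 or more. Ly6a, the Sca-1 gene used to sort arteriolar cells, was at 927 against 238 CPM (log2 1.96) and 1242 against 577 CPM (log2 1.11).

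Of the niche factors, Cxcl12 was at 2565 against 2059.9 CPM in adult (log2 0.32) and 2671 against 2327 CPM in old cells, and Kitl at 1445 against 1034 CPM (log2 0.48) and 1823 against 1449 CPM. Both genes are open to free RNA, since the lowest mean of the comparison cells came to 88.9% and 69.5% of the arterial mean for Cxcl12 and to 81.4% and 56% for Kitl in the adult and old libraries. The level that arterial cells make of Cxcl12 and Kitl was thus not measurable here. Of 21 angiocrine genes past the minimum in the adult library 5 were 2-fold higher in arterial cells, namely Jag2, Dll4, Igfbp3, Pdgfb and Dkk2, and 1 was lower. Among old cells 4 of 18 were higher, namely Jag1, Jag2, Bmp2 and Edn1, and 1 was lower. All genes together had 3.56% higher and 3.32% lower in the adult library, and 6.06% and 4.71% in the old one. Igfbp3, a carrier of insulin-like growth factors, was at 825 against 158 CPM in the adult library (log2 2.38, 2.29 to 2.47) and at 287 against 259 CPM in the old library (log2 0.14, -0.08 to 0.37). Dach1, a transcription factor of coronary artery growth, was likewise at 103 against 24.9 CPM in adult (log2 2.05) and 95 against 117 CPM in old cells (log2 -0.30).

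Markers of other cell types were read in the arterial cells. Acta2 of smooth muscle was found in 2.69% of adult arterial cells and 1.30% of old ones, and Prox1 of lymphatic vessels in 3.89% and 2.17%. Ptprc, the pan-leukocyte gene CD45, was found in 0 of 334 adult cells, which allows a share of cells with a UMI of up to 0.898%, and in 2.17% of old cells. Lepr of CAR cells was found in 53.6% of adult arterial cells and 44.8% of old ones, and in 55.1% and 46.1% of megakaryocyte-type cells, which should lack it. Col1a1, a bone collagen gene, went from 4619 CPM in adult to 80.9 CPM in old arterial cells, with UMIs in 96.1% and 20% of them, and in 93.1% and 22.7% of megakaryocyte-type cells. The immunoglobulin gene Igkc had 0 UMIs in adult arterial cells and UMIs in all 230 old arterial cells, as in all old megakaryocyte-type cells. Summed over its list, the osteolineage level was 12337 CPM in adult arterial cells and 3091 CPM in old ones, with 0 members at 0 in both. A few cells carried much of it, since the medians per cell were 1943 and 467 CPM, and the sums were 5801 and 1501 CPM without cells that had over 30000 UMIs or fewer than 3 of the 6 endothelial genes. The plasma cell list was at 154 CPM, with Mzb1, Igkc, Iglc2, Ighm and Derl3 at 0, and at 11289 CPM, with Mzb1 at 0. In old arterial cells Igkc alone was at 10980 CPM, and Jchain was at 78.5 CPM. The pericyte and smooth muscle list was at 979 and 542 CPM, and the CAR list at 7033 and 7566 CPM. RNA of bone-forming cells was thus high in the adult and immunoglobulin RNA, mostly Igkc, high in the old arterial cells. The part of this RNA in the differences between the ages was not tested.

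Between the ages, 163 of 4701 genes past the minimum were at least 2-fold higher in old than in adult arterial cells (3.47%) and 191 were at least 2-fold lower (4.06%), with a median log2 ratio of 0.00 over all genes. Cells over 30000 UMIs, which number 4 in the adult library and 5 in the old one, gave 5.97% and 17.2% of all arterial UMIs. For some genes and gene lists, values are therefore also given without the deepest cells. They come from the 324 adult and 221 old arterial cells with at least 3 of the 6 endothelial genes and at most 30000 UMIs. This choice was made after the data were seen. Where no such value is given, the deepest cells are included. For many genes the ratio or level in the remaining endothelial cells stands beside the arterial one, and the difference between them was not tested.

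Mecom, Stmn2 and Nebl were higher in old than in adult arterial cells. Mecom went from 565 CPM in adult to 1193 CPM in old arterial cells, a log2 ratio of 1.08 (0.98 to 1.18), of 1.30 without the deepest cells and of 0.98 among cells with a rule gene sum of 5 or more. In the remaining cells the log2 ratio of Mecom was 2.55. Stmn2 went from 109 to 256 CPM (log2 1.23) and was found in 28.1% of adult arterial cells and 63.0% of old ones, or 17.5% and 42.7% after thinning, against at most 0.231% of CAR-type and megakaryocyte-type cells. Nebl went from 283 to 889 CPM (log2 1.65), Tgfb2 from 87.0 to 248 CPM (log2 1.51) and Edn1 from 21.6 to 64.3 CPM (log2 1.58). Jag2 and Jag1 were just under 2-fold, with log2 ratios of 0.98 and 0.89, and Hey1 had one of 0.18 (-0.20 to 0.55). In the remaining cells Stmn2, Nebl, Tgfb2 and Jag2 were also higher in the old library, while Hey1 was lower there, with 1 UMI. Edn1, also with 1 UMI in old remaining cells, and Jag1 were not apart beyond counting error there. Their old and adult intervals were 0.03 to 6.02 and 2.58 to 4.88 CPM for Edn1, and 21.0 to 45.0 and 37.0 to 44.5 CPM for Jag1. Of the 30 arterial markers outside the rule past the minimum, 4 were 2-fold higher in old cells (Mecom, Stmn2, Edn1 and Slc6a6) and 2 were lower (Igfbp3 and Dkk2), with a median log2 ratio of 0.36. Over all genes 3.47% were higher and 4.06% lower. Without the deepest cells 9 of 30 were higher and 2 lower, with a median of 0.54, where 4.3% of all genes were higher and 3.38% lower. Of 14 Notch pathway genes past the minimum 0 were 2-fold apart between the ages over all arterial cells (median -0.12). Without the deepest cells 2 of the 14, Jag1 (log2 1.18) and Jag2 (log2 1.19), were 2-fold higher in old cells and 0 lower (median 0.02).

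**Figure D4:**
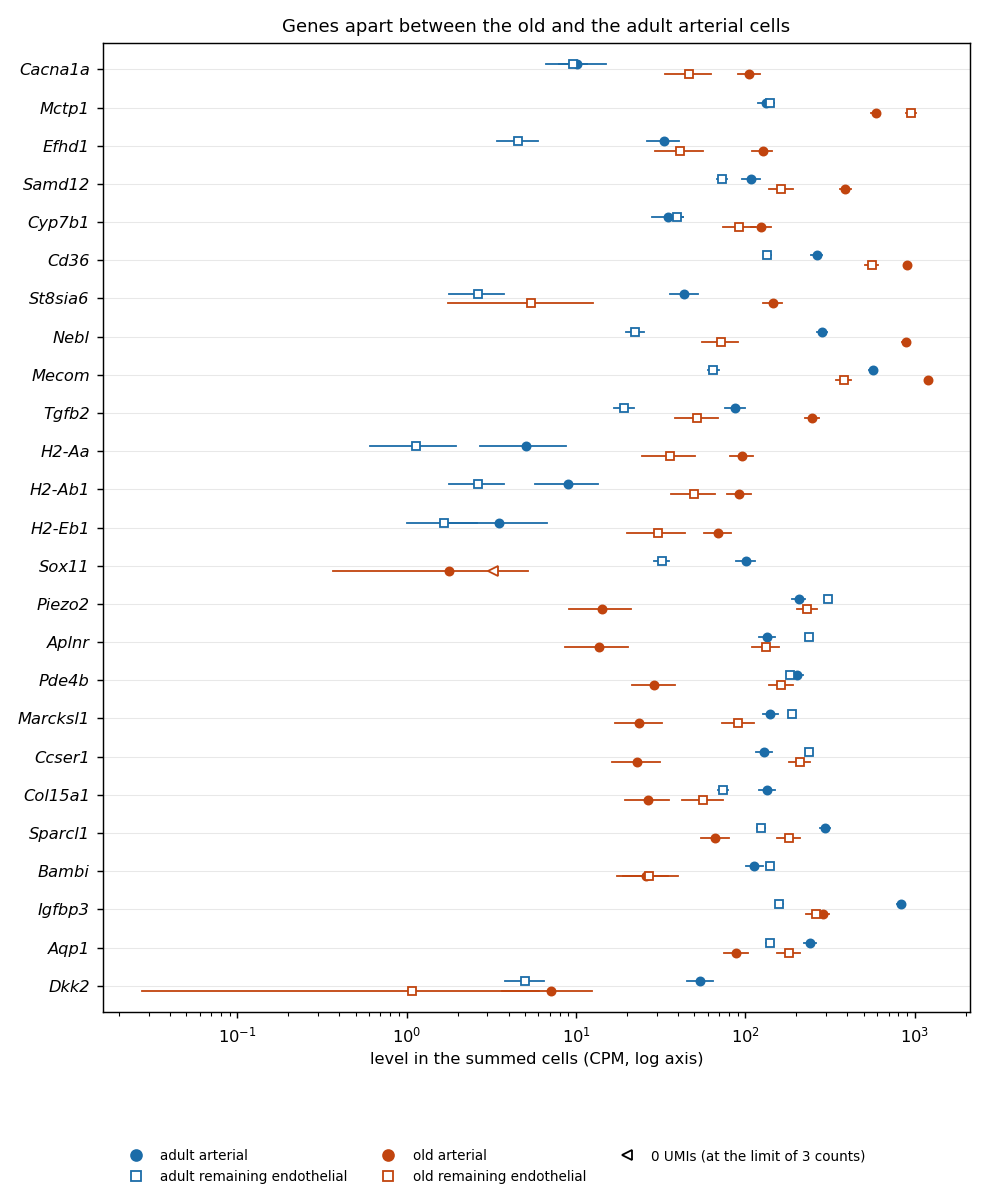
Level in CPM (x axis, log scale) of 25 genes in arterial cells (filled circles) and remaining endothelial cells with at least 3 of the 6 endothelial genes (open squares) of the adult (blue) and the old (orange-red) library, with 95% Poisson bars for counting error. A left-pointing triangle marks 0 UMIs, drawn at the limit of 3 counts. Sox11 went from 100 CPM in adult to 1.77 CPM in old arterial cells, and Cd36 from 264 to 904 CPM.

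Cacna1a, Mctp1 and Cd36 were among the 10 named genes with the highest ratios of old over adult arterial cells. Cacna1a, a pore subunit of P/Q-type calcium channels, went from 10.2 CPM in adult to 106 CPM in old arterial cells (log2 3.37, 2.77 to 4.03). Cacna1a UMIs were found in 5.99% of adult arterial cells and 41.7% of old ones, or in 2.6% and 22.5% after thinning, against 6.15% and 6.37% of CAR-type cells, and the log2 ratio in the remaining cells was 2.27. Mctp1, a calcium-binding membrane protein, went from 132 to 586 CPM (log2 2.15, remaining cells 2.77). Cd36, a fatty acid transporter, went from 264 to 904 CPM (log2 1.78, 1.64 to 1.91, remaining cells 2.05) and was found in 50.6% of adult arterial cells and 90.0% of old ones, or 34.4% and 76.7% after thinning, against at most 2.15% of CAR-type cells. Fabp4, a fatty acid binding protein named after its values were seen, went from 2150 to 4928 CPM (log2 1.20), with a log2 ratio of 0.35 in the remaining cells. Cd36 and Fabp4 are both on the capillary list, whose summed level was 5999 CPM in adult and 8253 CPM in old arterial cells, with medians per cell of 5927 and 10083 CPM. Of 11 capillary genes past the minimum these 2 were 2-fold higher in old arterial cells and 2 were lower (median -0.53), against 3.47% higher and 4.06% lower over all genes. Samd12 went from 108 to 389 CPM (log2 1.85, remaining cells 1.15), Efhd1, a calcium-binding mitochondrial protein, from 32.9 to 126 CPM (1.94, remaining cells 3.17), and Cyp7b1, an oxysterol hydroxylase, from 34.9 to 124 CPM (1.83, remaining cells 1.23). These genes were higher in old than in adult remaining cells as well. St8sia6, a sialyltransferase, went from 43.5 to 145 CPM in arterial cells (log2 1.73), while in the remaining cells it was at 2.63 and 5.4 CPM. The highest of the 10 ratios, that of the mitochondrial carrier Slc25a21 (log2 4.54), rested on few cells, since 5 cells held 93.1% of its old UMIs, and it was 1.10 without the deepest cells.

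MHC class II genes, which present peptides to helper T cells, were at higher levels in the old arterial cells. These genes were named after their values were seen. H2-Aa went from 5.10 CPM in adult to 95 CPM in old arterial cells (log2 4.22, 3.41 to 5.16), and H2-Ab1 from 9.02 to 92.1 CPM (log2 3.35, 2.71 to 4.05). H2-Eb1 was at 3.53 and 68.5 CPM (log2 4.28, 3.30 to 5.44). H2-Aa UMIs were found in 3.29% of adult arterial cells and 33.9% of old ones, H2-Ab1 in 4.79% and 33.9%, and H2-Eb1 in 2.69% and 28.3%. After thinning the shares were 1.1% and 18.2%, 2.0% and 17.4%, and 0.5% and 14%. The highest share in CAR-type or megakaryocyte-type cells of the old library, which have median depths of 8072 and 2362.5 UMIs, was 0.926% for H2-Aa, 2.43% for H2-Ab1 and 4.11% for H2-Eb1. The old arterial shares, before and after thinning, were thus above the shares in these CAR-type and megakaryocyte-type cells for all 3 genes. In the remaining endothelial cells the log2 ratios of old over adult were 4.97, 4.24 and 4.18. Cd74, the invariant chain that escorts class II proteins, was at 5.10 and 283 CPM, but it was found in 17.9% of old CAR-type cells and is open to free RNA. Of 18 antigen presentation genes past the minimum 6 were 2-fold higher in old arterial cells and 0 lower (median 0.69), against 3.47% higher and 4.06% lower over all genes. Only 3 of the 18, the class II genes above, were not open to free RNA. Ptprc was found in 2.17% of the same old cells, and the part of blood cell RNA in the class II levels was not tested.

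**Figure D5:**
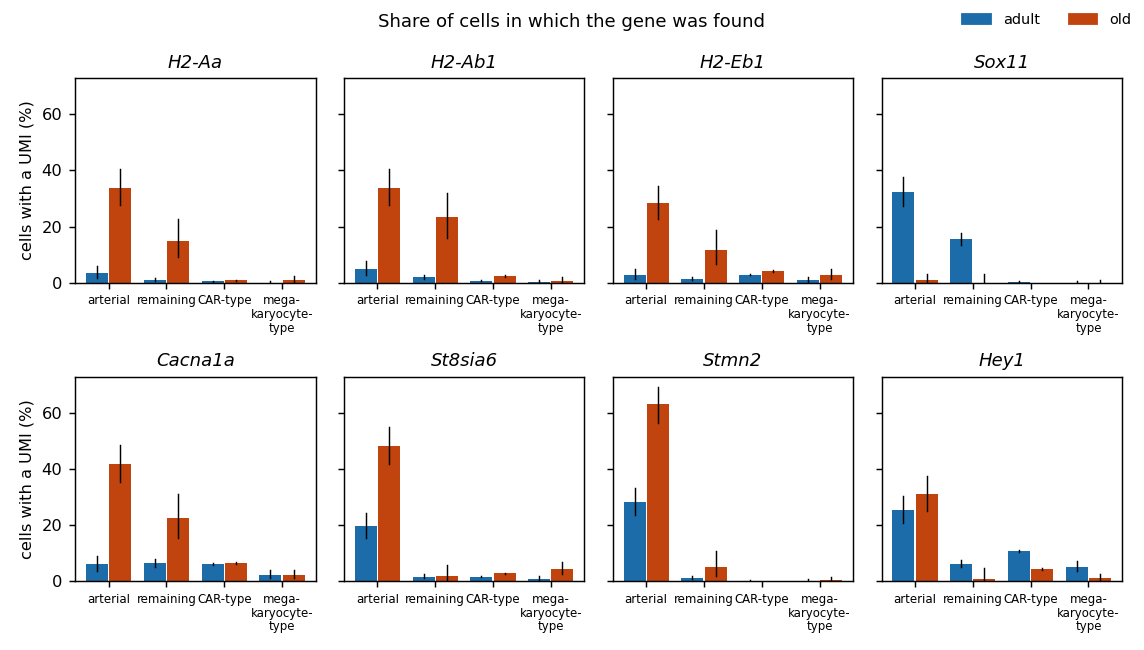
Percent of cells with at least 1 UMI (y axis) of H2-Aa, H2-Ab1, H2-Eb1, Sox11, Cacna1a, St8sia6, Stmn2 and Hey1 in arterial, remaining endothelial, CAR-type and megakaryocyte-type cells of the adult (blue) and the old (orange-red) library. Bars show shares of cells with exact 95% binomial intervals, and H2-Aa was found in 3.29% of adult arterial cells and 33.9% of old ones.

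Class II promoters share a Y box, bound by the factor NF-Y, which lies beside the X box read by the RFX complex. The RefSeq table (GRCm38.p6) held 2 of these 3 promoters, and both had the letters CTGATTGG, searched on both strands, in the 250 bases before the start site. Those letters occur in 3.83% of all 32851 promoters of that length. Both are shown because these genes moved together between the libraries, with the Y box in capitals. The first lies at chr17:34287824-34288073 on the minus strand and the second at chr17:34305617-34305866 on the plus strand.
H2-Aa: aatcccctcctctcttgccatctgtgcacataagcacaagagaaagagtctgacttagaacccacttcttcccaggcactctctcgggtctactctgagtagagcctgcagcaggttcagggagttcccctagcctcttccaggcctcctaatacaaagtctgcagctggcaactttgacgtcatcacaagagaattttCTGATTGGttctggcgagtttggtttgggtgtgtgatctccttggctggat
H2-Eb1: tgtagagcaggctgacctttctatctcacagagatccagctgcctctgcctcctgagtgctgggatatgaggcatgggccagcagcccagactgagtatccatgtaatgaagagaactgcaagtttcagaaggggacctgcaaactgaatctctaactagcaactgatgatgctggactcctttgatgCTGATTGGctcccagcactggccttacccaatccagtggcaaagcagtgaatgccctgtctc
The Y box stood 51 bases before the H2-Aa and 62 bases before the H2-Eb1 start site.

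Sox11, Piezo2 and Aplnr were among the 10 named genes with the lowest ratios of old over adult arterial cells. Sox11, a transcription factor of embryonic development, went from 100 CPM in adult to 1.77 CPM in old arterial cells (log2 -5.83, -8.11 to -4.26). Its UMIs were found in 32.3% of adult arterial cells and 0.87% of old ones, or in 15% and 0.6% after thinning, and in at most 0.338% of CAR-type and megakaryocyte-type cells. In the remaining cells Sox11 was at 32.0 CPM in the adult library and at 0 UMIs in the old library. Piezo2, a stretch-gated ion channel, went from 206 to 14.2 CPM (log2 -3.86, -4.52 to -3.27), with a log2 ratio of -0.42 in the remaining cells. Aplnr, the apelin receptor, went from 134 to 13.6 CPM (log2 -3.30, remaining cells -0.85). Pde4b, a cyclic AMP phosphodiesterase, went from 200 to 28.9 CPM (log2 -2.79, remaining cells -0.18), and Ccser1 from 129 to 23 CPM (log2 -2.49, remaining cells -0.18). Without the deepest cells the log2 ratios were -5.63 for Sox11, -3.79 for Piezo2, -3.16 for Aplnr and -2.65 for Pde4b. Among cells with a rule gene sum of 5 or more, 167 adult and 161 old cells, the log2 ratios were -5.38 for Sox11, -4.54 for Piezo2 and -5.06 for Aplnr. For Piezo2, Aplnr, Pde4b and Ccser1 the levels of the remaining cells were closer between the libraries than those of arterial cells.

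Col15a1, Sparcl1, Igfbp3 and the collagen IV genes were lower in old arterial cells. Col15a1, a basement membrane collagen, went from 135 to 26.6 CPM (log2 -2.34, remaining cells -0.40), and Sparcl1, a matricellular protein, from 295 to 66.1 CPM (log2 -2.16, remaining cells 0.55). Igfbp3 went from 825 to 287 CPM (log2 -1.52), against a log2 ratio of 0.71 in the remaining cells. Dkk2, a secreted Wnt regulator, went from 54.1 to 7.08 CPM (log2 -2.93), and the BMP decoy receptor Bambi from 113 to 26.0 CPM (log2 -2.12, remaining cells -2.36). Aqp1, a water channel, went from 240 to 88.5 CPM (log2 -1.44, remaining cells 0.38). Of 29 basement membrane and elastic fibre genes past the minimum 8 were 2-fold lower and 1 higher (median -0.34), and without the deepest cells 6 were lower and 4 higher (median -0.03). Over all genes 4.06% were lower and 3.47% higher, or 3.38% and 4.3% without the deepest cells. The collagen IV genes of vascular basement membrane, chosen after their values were seen, were at 1806 and 669 CPM for Col4a1 and at 968 and 387 CPM for Col4a2. Their log2 ratios in the remaining cells were -0.08 and -0.09. The surface sialomucins Cd34 and Emcn were at 386 and 165 CPM and at 794 and 397 CPM, which makes them the 2 of 16 pan-endothelial genes at least 2-fold lower in old arterial cells (median -0.49). Emcn lay at the threshold itself, and without the deepest cells its log2 ratio was -0.82 and only Cd34 of the 16 was 2-fold lower (median -0.34). The lowest of the 10 named ratios, that of the osteocalcin gene Bglap2 (log2 -9.49), was one of the osteolineage list, and 5 adult cells held 90.9% of its adult UMIs.

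Energy, interferon and cell cycle genes were read by the same counts. Of all genes 3.47% were 2-fold higher and 4.06% lower in old arterial cells, or 4.3% and 3.38% without the deepest cells. Of 31 oxidative phosphorylation genes 0 were 2-fold apart (median 0.05, or -0.33 without the deepest cells), and of 20 interferon response genes 1 was higher (median 0.17). Of 23 immediate early genes 4 were 2-fold lower and 0 higher in old cells (median -0.71), with Fos at 1526 and 746 CPM and the remaining cells at 1348 and 620 CPM. Of 9 cell cycle genes 3 were higher and 1 lower (median 0.63), while without the deepest cells 0 of 6 were higher and 1 was lower (median -0.40). Of 12 cell cycle inhibitors and p53 targets 2 were lower and 0 higher (median -0.32).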

How the data were processed

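For each library the authors deposited gene, barcode and matrix files of raw UMI counts, made with Cell Ranger 7.0.1 per the file headers and on GRCm39 per the submitters' processing notes. The annotation release is not given in the sources used here. The deposited counts were read as they are, and CPM was computed here per cell group. Members, gene lists and comparisons were chosen with earlier results of these data known.

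Of 25635 adult and 22298 old barcodes 22403 and 18975 were kept. No doublet caller was run and no doublets were removed. UMIs were summed per gene, library and cell group, and log2 ratios of CPM carry exact 95% intervals (binomial shares, Poisson sums). A gene was counted when the higher group had 50 CPM and 50 UMIs or more, and called at 2-fold. A group at 0 UMIs was set to a floor of 3 counts, which makes its ratio a bound. No test was run, since each age has 1 library. Endothelial cells with at least 3 of the 6 genes, cells up to 30000 UMIs and rule gene sums of 5 or more were read as conditions added after the data were seen.

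The genes named were the 20 highest and 15 lowest adult ratios of arterial over remaining cells (at least 100 CPM and 100 UMIs) and the 10 highest and 10 lowest ratios of old over adult arterial cells (at least 100 CPM and 50 UMIs). Left out of these were gate genes, genes open to free RNA, predicted genes, Xist and Y-linked genes, and genes of mitochondria, ribosomes, immunoglobulins and haemoglobins. Up to 4 members of each gene list, the rule genes, Mecom, Hey1 and 18 fixed genes such as Cxcl12 and Kitl were always taken. Class II genes, Cd74, Fabp4, the marker genes of other cells, Nr2f2, Gkn3, Fos, Col4a1 and Col4a2 were named after their values were seen. Shares of cells with a UMI were also read after thinning each cell to 2000 UMIs, without shallower cells.

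The work used Python 3.11.15, numpy 2.4.6, pandas 2.3.3, scipy 1.17.1 and matplotlib 3.10.9, and the code was tested on simulated counts. Promoters came from a RefSeq table of another build (GRCm38.p6), matched by symbol.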

Additional observations from a re-analysis of the deposited data

Results flagged for a closer look

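Some genes differed in opposite directions in the adult and the old library or in arterial and remaining endothelial cells (those with at least 3 of the 6 endothelial genes), and these differences were not tested. Each direction comes from 1 library per age.

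The log2 ratio of arterial over remaining cells was positive in the adult and negative in the old library for 3 genes. It was 0.79 and -1.03 for the water channel Aqp1, 0.86 and -1.08 for the collagen Col15a1, and 1.26 and -1.45 for the matricellular gene Sparcl1.

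The log2 ratio of old over adult had opposite signs in arterial and remaining cells for 7 genes. It was -1.44 in arterial and 0.38 in remaining cells for Aqp1, and -2.16 and 0.55 for Sparcl1. For the growth factor binding protein genes it was -1.52 and 0.71 (Igfbp3) and -1.0 and 0.19 (Igfbp7). The flow-induced Klf4 had 0.48 in arterial and -1.11 in remaining cells, and the interferon-induced Rsad2 had -0.26 and 1.06. Stmn1, a tubulin regulator of dividing cells, had 0.63 in arterial and -1.08 in remaining cells, and -0.45 in arterial cells without those over 30000 UMIs.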

How the results depend on the processing

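No paired analysis was possible because each age has 1 library. The causes of the shifts below were not tested beyond what each setting changes. The arterial share of adult endothelial cells, 19.7%, was 14.8% with an arterial threshold of 3 UMIs, 21.7% with an endothelial threshold of 10 UMIs, 26.9% with no condition on Stab2 and 15.3% with gates read after thinning to 3000 UMIs. The old share, 34.7%, was 54.1% with the endothelial threshold of 10, 62.2% after thinning and, in settings added after seeing the data, 65.2% with at least 3 of the 6 endothelial genes and 65.2% with a limit of 30000 UMIs as well. The ratio of old over adult, 1.77, was 2.17, 2.49, 1.40 and 4.06 with the arterial threshold of 3, the endothelial threshold of 10, no condition on Stab2 and thinning, and 3.28 and 3.26 in the added settings. The ratio of shares of all kept cells, 0.813, was 0.998, 0.643 and 0.991 with the arterial threshold of 3, no condition on Stab2 and thinning.

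Counts at 2-fold were 164 higher and 147 lower for arterial over all remaining endothelial cells of the rule in the adult library. They were 98 and 85 with no condition on Stab2, 107 and 84 at a minimum of 100 CPM and 100 UMIs, and 484 and 1671 at 10 UMIs, and 248 were lower after thinning. In the old library 1846 were higher and 1490 lower. They were 237 and 228 after thinning, 1099 and 953 at the minimum of 100, 4393 and 2795 at 10 UMIs, 227 and 196 with at least 3 of the 6 genes, and 227 and 183 with the depth limit as well, and 821 were higher without genes open to free RNA. For old over adult arterial cells 163 were higher and 191 lower. They were 80 and 101 at the minimum of 100, 863 and 1060 at 10 UMIs, and 76 and 81 without genes open to free RNA. For these cells 294 were lower without the endothelial cells highest in CAR markers and 126 were lower by the mean of each cell's CPM.

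For single genes, 4238 values stayed within their counting interval, 752 moved and 9 reversed. The 4238 include all values from the settings with another minimum and without genes open to free RNA. Those settings change only which genes are counted, so their values could not move and say nothing on stability. The 9 reversals were in the old library with all remaining cells of the rule, where log2 ratios of arterial over remaining cells were 1.74 for Adamts5, 1.44 for F8, -2.42 for Hmgb2, 0.57 for Ralgapa2, -3.01 for Slc25a21, 3.06 for Sparcl1, 2.83 for Stab1, -2.24 for Stmn1 and 1.98 for Tfpi.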

Other observations

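Barcodes that the filters left out held few arterial cells. By the same gates 3 adult and 2 old arterial cells were among them, each with over 10% mitochondrial UMIs. Endothelial cells that passed the arterial threshold but held Stab2 UMIs, 122 adult and 19 old with at least 3 of the 6 endothelial genes, had Mecom at 135 CPM (adult) and 494 CPM (old), below the 565 and 1193 CPM of arterial cells.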
